A study of Mus musculus with 12 samples.

Results

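Genes of the TGF-beta and BMP signalling system were followed in 3 kinds of cultured fat cell and in fat tissue. The set holds the ligands, receptors, secreted antagonists and latency proteins of the system and 5 of its transcriptional targets. The 42 genes were listed by name, and 41 of them had a probe set with a single gene symbol and were measured among 19938 genes in all. Gdf15 was not analysed here. Each of the 41 genes had 1 such probe set.

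The 12 Affymetrix arrays hybridised mouse RNA from 4 groups, with 3 biological replicates in each. Adipocytes differentiated in vitro made up 3 of the groups. The 3T3-L1 group came from an established mouse fibroblast line, the PMEF group from primary mouse embryonic fibroblasts, and the ES group from mouse embryonic stem cells. The fourth group, labelled eWAT (the usual short form of epididymal white adipose tissue), was whole tissue from healthy wild-type mice, so it also held the vessels, blood cells and stroma of the depot. The labels used here give no strain, age, sex, culture time or differentiation agent for any group, and cell origin cannot be told apart from culture conditions. Levels are log2 intensities, in which 1 unit is 2-fold, and levels of different genes were not compared because probe sets differ in brightness.

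The TGF-beta family acts through secreted dimers that bring together type I and type II receptor kinases at the cell surface. TGF-betas and activins then pass the signal to Smad2 and Smad3, and BMPs pass it to Smad1, Smad5 and Smad9. In fat, BMP4 is known for committing precursor cells to the adipocyte lineage, TGF-beta for holding fibroblasts back from it, and the activin receptor Acvr1c for restraining lipolysis in mature fat cells.

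A 2-fold difference between groups was more common in the gene set than among all genes measured. The genes were chosen with earlier results of these data known. Shares above those of all genes, here and below, therefore cannot be read as a property of the pathway. In at least 1 of the 6 pairwise comparisons 24 of 41 genes (58.5%) were called with at least a 2-fold difference, against 24.7% of all genes. The background holds many silent genes, since 22.8% of all genes and 2 of the 41 were dim on every array. Dim means at or under a log2 intensity of 5.19, the 95th percentile of 1194 olfactory and vomeronasal receptor genes, which stood for genes with no signal. Among all genes above that line on at least 1 array the 2-fold share was 31.5%. A call here means an adjusted p under 0.05 in limma over all genes. Against eWAT, 5 of 41 genes were higher and 24 lower in 3T3-L1 adipocytes, where 30.8% and 22.5% of all genes were higher and lower. At 2-fold or more, 0 were higher and 11 lower, against backgrounds of 6.05% and 8.49%. In PMEF adipocytes 23 were higher and 10 lower (background 24.7% and 21.6%), and at 2-fold or more 10 were higher and 5 lower (4.92% and 5.46%). In ES adipocytes 15 were higher and 16 lower (28.8% and 20.9%), and at 2-fold or more 6 were higher and 2 lower (4.39% and 5.86%). These 3 comparisons share the eWAT arrays. With smaller differences counted too, 38 genes (92.7%) were called in at least 1 of the 6 comparisons, against 76.0% of all genes. The median log2 difference of the 41 genes from eWAT was -0.41 for 3T3-L1 adipocytes, 0.45 for PMEF adipocytes and -0.05 for ES adipocytes, beside medians of 0.05, 0.05 and 0.04 over all genes. Between 3T3-L1 and eWAT arrays 32 of the 41 genes did not overlap (59.1% of all genes), between PMEF and eWAT 34 (51.9%) and between ES and eWAT 33 (57.9%). The split between 3T3-L1 adipocytes and eWAT depends on the scaling of the arrays. Centring each array on its median moved the median difference of all genes from 0.046 to 0.256 and gave 10 higher and 20 lower genes of the set. Centring on 7 housekeeping genes, named the reference genes from here on, moved it to -0.196 and gave 3 higher and 30 lower genes.

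**Figure D1:**
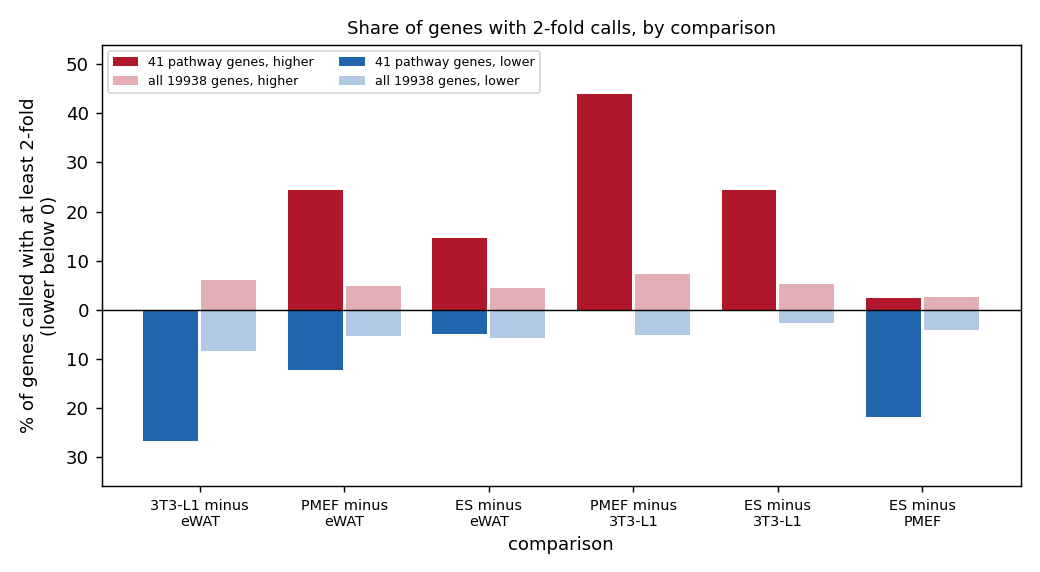
Bars give the percentage of genes called with at least a 2-fold difference in each of the 6 comparisons, with higher calls above 0 and lower calls below it. Dark bars are the 41 pathway genes and pale bars all 19938 genes. For 3T3-L1 minus eWAT 11 of the 41 genes were lower and 0 higher, and for PMEF minus 3T3-L1 18 were higher and 0 lower.

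By group mean, 22 of the 41 genes were at their highest in PMEF adipocytes and 25 were at their lowest in 3T3-L1 adipocytes. Of the others, 11 were highest in eWAT, 7 in ES and 1 in 3T3-L1 adipocytes. These counts have no size threshold, and the matching shares of all genes were not counted. The median gene level was 6.11 to 6.12 on the 3T3-L1 arrays and 6.31 to 6.35 on the others. The ranks were not recounted under other scalings. With the test added, 6 genes (14.6%) were higher in PMEF adipocytes than in each other group by at least 2-fold, against 2.1% of all genes. They were Tgfb3, Bmp1, Inhba, Fst, Fstl1 and Ltbp2. In the opposite direction 5 genes (12.2%) were lower in 3T3-L1 adipocytes than in each other group by at least 2-fold, against 2.63% of all genes. These were Bmp3, Bmp4, Gdf10, Acvr1c and Id2. Bmp3 lay nearest the threshold, with a smallest difference of 1.13 on the log2 scale. The genes set apart by 2-fold in 1 group were not recounted under other scalings either. Bmp6 was the 1 gene (2.44%, against 3.57% of all genes) set above the other groups in eWAT.

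**Figure D2:**
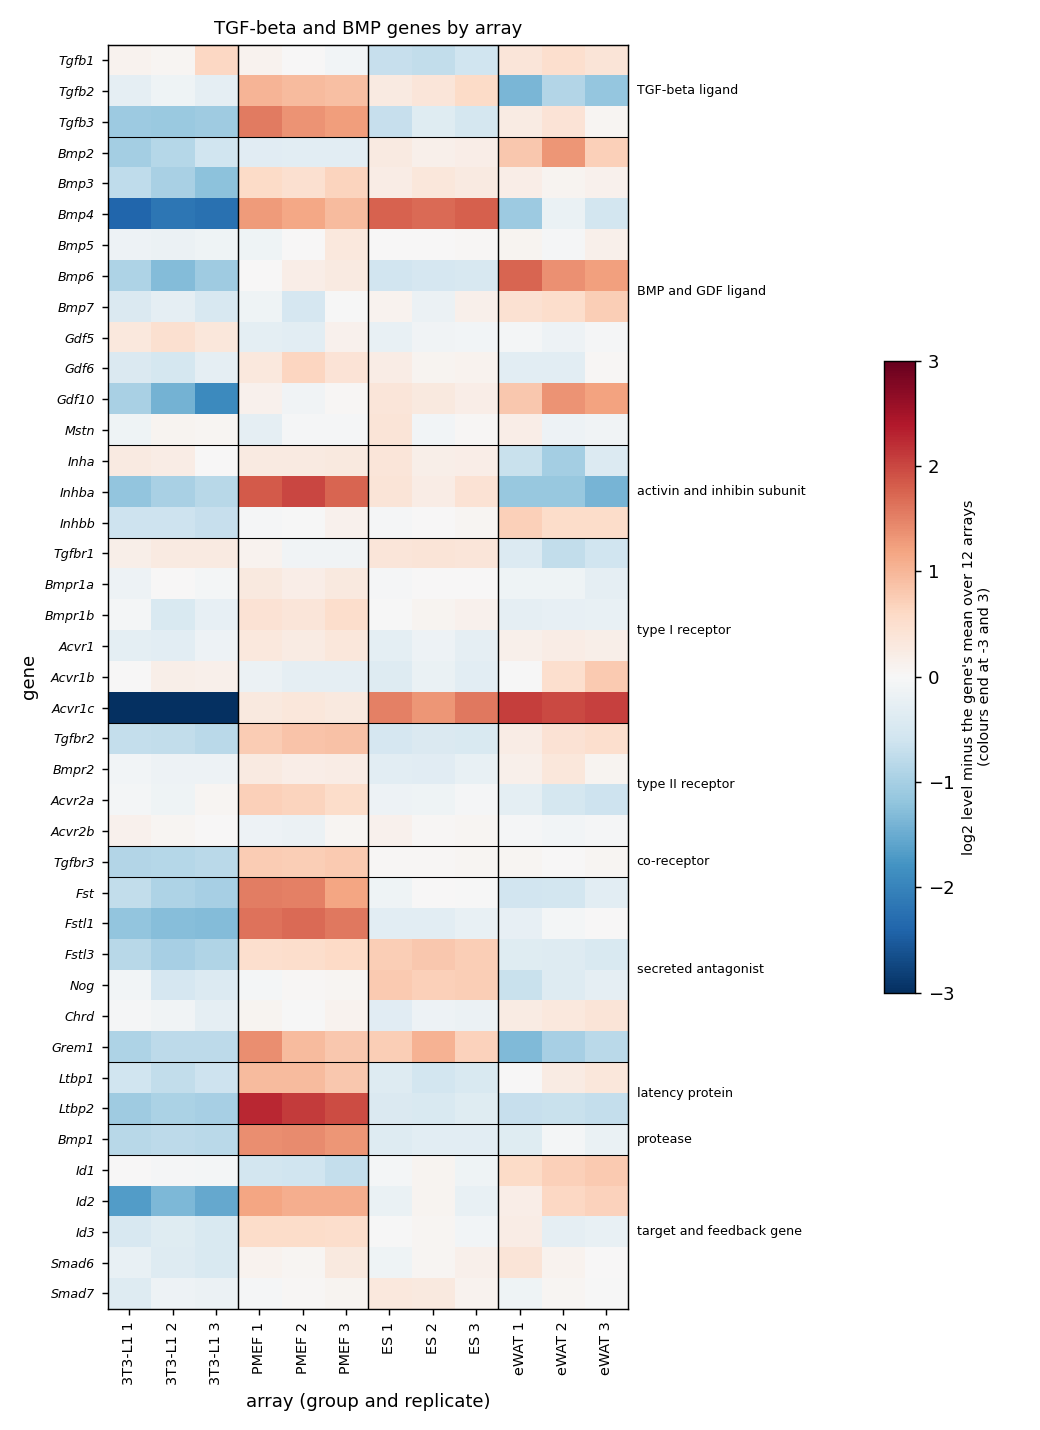
Each row is a gene, grouped by role, and each column an array. Colour is the log2 level minus the gene's mean over the 12 arrays, with colours ending at -3 and 3. In the PMEF columns the deepest red rows are Ltbp2, Inhba, Fstl1, Fst, Tgfb3 and Bmp1, and in the 3T3-L1 columns Acvr1c and Bmp4 are the deepest blue.

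Fibroblast markers were also highest in PMEF and lowest in 3T3-L1 adipocytes. All 7 measured markers (Pdgfra, Col1a1, Col3a1, Dcn, Lum, Thy1 and Pdgfrb) were higher than eWAT in PMEF adipocytes and all 7 were lower in 3T3-L1 adipocytes, while in ES adipocytes 1 was higher and 4 were lower. Their summed level ran from 14.52 to 14.53 in PMEF, 13.26 to 13.44 in eWAT, 12.90 to 12.97 in ES and 11.36 to 11.45 in 3T3-L1 adipocytes (log2 of summed intensities), and none of them was dim in all arrays of a group. Mesothelial markers were higher than eWAT in 8 of 8 genes in both PMEF and ES adipocytes, and in 3T3-L1 adipocytes 3 were higher and 1 lower. Their summed level was 10.72 to 10.89 in PMEF, 10.15 to 10.20 in ES, 8.53 to 8.58 in 3T3-L1 and 8.58 to 8.74 in eWAT, with 2 of the 8 dim in 3T3-L1 adipocytes and 1 in eWAT. The part of either cell type in the differences of the pathway genes was not tested. In whole tissue and mixed cultures, fewer cells of a type and less RNA per cell cannot be told apart. The fat cell labels held for 6 of 7 markers, since Adipoq, Plin1, Cidec, Fabp4, Pparg and Slc2a4 were above the dim line in every group. The seventh marker, Lep, was dim on all 3T3-L1 arrays.

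The promoters shown belong to 2 Id target genes, to a pair of antagonists that were high in both the PMEF and the ES cultures, and to Bmp4. RefSeq sequences (GRCm38.p6) were found for 29 of the 41 genes. Each line holds the 250 bases before the annotated start, 5′ to 3′ on the gene's strand, and capitals mark matches to 4 motifs searched on both strands. The motifs were CAGAC, a Smad3 and Smad4 box, GGCGCC, a GC-rich element bound by BMP Smads, TGANTCA, the AP-1 site, and TATAAA, the TATA box. No motif overlapped another in these lines.
Id2 promoter, chr12:25096093-25096342, minus strand: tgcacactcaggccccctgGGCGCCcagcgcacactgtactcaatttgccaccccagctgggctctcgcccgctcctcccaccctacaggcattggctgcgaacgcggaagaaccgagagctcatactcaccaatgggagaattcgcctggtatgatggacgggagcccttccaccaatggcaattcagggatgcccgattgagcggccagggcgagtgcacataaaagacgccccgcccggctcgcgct
Id3 promoter, chr4:136143572-136143821, plus strand: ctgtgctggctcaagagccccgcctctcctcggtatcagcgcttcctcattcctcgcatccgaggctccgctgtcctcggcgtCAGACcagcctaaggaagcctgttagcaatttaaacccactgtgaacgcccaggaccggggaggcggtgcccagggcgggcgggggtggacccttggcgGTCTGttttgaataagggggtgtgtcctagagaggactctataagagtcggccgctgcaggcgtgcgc
Grem1 promoter, chr2:113758649-113758898, minus strand: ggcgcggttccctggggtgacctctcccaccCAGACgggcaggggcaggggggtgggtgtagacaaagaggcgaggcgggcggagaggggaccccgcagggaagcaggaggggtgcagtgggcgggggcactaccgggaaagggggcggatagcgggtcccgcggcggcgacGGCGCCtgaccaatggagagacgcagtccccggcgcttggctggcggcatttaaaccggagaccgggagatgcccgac
Fstl3 promoter, chr10:79777024-79777273, plus strand: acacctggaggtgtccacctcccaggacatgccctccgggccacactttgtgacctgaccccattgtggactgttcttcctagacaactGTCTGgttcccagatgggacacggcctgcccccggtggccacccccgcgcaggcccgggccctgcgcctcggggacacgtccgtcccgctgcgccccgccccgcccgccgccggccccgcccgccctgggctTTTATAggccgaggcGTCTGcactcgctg
Bmp4 promoter, chr14:46390670-46390919, minus strand: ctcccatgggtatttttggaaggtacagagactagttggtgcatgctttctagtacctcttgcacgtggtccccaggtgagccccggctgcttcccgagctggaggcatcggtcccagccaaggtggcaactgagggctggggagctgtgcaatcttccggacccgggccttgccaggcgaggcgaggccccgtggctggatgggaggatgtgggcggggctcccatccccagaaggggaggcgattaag
Id3 held CAGAC at 167 and 68 bases before the start, and Id2 held GGCGCC at 231. In Grem1 CAGAC lay at 219 and GGCGCC at 78 bases before the start. Fstl3 had CAGAC at 161 and 14 and TATAAA at 29, each on the strand opposite to the gene's. Bmp4 had no match in this window. Over all 32851 RefSeq promoter windows of this length CAGAC occurred in 42.2%, GGCGCC in 9.59%, TGANTCA in 6.75% and TATAAA in 12.4%. The matching shares over the 34 windows of measured genes were 52.9%, 17.6%, 2.94% and 14.7%. The short CAGAC box is common in any window of this length, and a match describes letters only.

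The 3 TGF-beta ligands, which signal through Tgfbr1 and Tgfbr2, moved apart from one another. Tgfb2 was higher than tissue in each culture, Tgfb1 was lower in PMEF and ES adipocytes, and Tgfb3 was higher in PMEF and lower in 3T3-L1 and ES adipocytes. Tgfb3 stood at 6.65, 6.62 and 6.66 on the 3T3-L1 arrays, 9.29, 9.07 and 8.98 in PMEF, 7.03, 7.37 and 7.20 in ES adipocytes, and 7.98, 8.13 and 7.78 in eWAT. No arrays of different groups overlapped, and the order was PMEF, eWAT, ES, 3T3-L1. Against eWAT it rose by 1.15 ± 0.11 in PMEF and fell by 1.32 ± 0.11 in 3T3-L1 adipocytes (log2, SE, n = 3 per group). The limma adjusted p was 1.15e-06 and 1.91e-07.

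Tgfb2 read 7.01, 7.15 and 7.01 in 3T3-L1, 8.31, 8.23 and 8.20 in PMEF, 7.56, 7.66 and 7.87 in ES adipocytes, and 5.93, 6.42 and 6.13 in eWAT. Tissue was the lowest group with no overlap. The rises over eWAT were 2.09 ± 0.12 in PMEF, 1.54 ± 0.12 in ES and 0.90 ± 0.12 in 3T3-L1 adipocytes (limma adjusted p = 4.74e-09, 1.14e-07 and 1.37e-05). Tgfb1 gave 8.08, 8.05 and 8.17 in ES adipocytes against 9.13, 9.27 and 9.17 in eWAT, a difference of -1.09 ± 0.12. Its 3T3-L1 arrays, at 8.88, 8.83 and 9.40, spread over both sides of the eWAT values. That group's difference from eWAT, -0.15 ± 0.12, passed the test only with array 3 left out (-0.33, adjusted p = 0.00512) or on the reference genes (-0.39, 0.0193). The PMEF difference of -0.40 ± 0.12 (adjusted p = 0.0169) lost its call without PMEF array 3 (0.0642) or eWAT array 2 (0.0608).

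Among the 10 measured BMP and GDF ligands, 6 were lower and 1 higher than tissue in 3T3-L1 adipocytes, 4 lower and 3 higher in PMEF, and 4 lower and 2 higher in ES adipocytes. For comparison, 22.5% of all genes were lower and 30.8% higher in 3T3-L1, 21.6% and 24.7% in PMEF, and 20.9% and 28.8% in ES adipocytes. The 3 ligands higher in PMEF and the 2 higher in ES adipocytes lay near these shares. Called ligands with some arrays at or under the dim line were Bmp2, Bmp4, Bmp7, Gdf5 and Gdf6. Bmp4, the ligand tied to adipocyte commitment, had the largest spread of group means among the 10 ligands. It read 4.85, 5.08 and 5.0 in 3T3-L1, 8.51, 8.40 and 8.19 in PMEF, 9.01, 8.93 and 9.04 in ES adipocytes, and 6.15, 7.03 and 6.68 in eWAT. All 3T3-L1 arrays lay under the dim line, so the level there is only a bound. Relative to eWAT, Bmp4 rose by 2.37 ± 0.17 in ES and 1.75 ± 0.17 in PMEF adipocytes and fell by 1.64 ± 0.17 in 3T3-L1 adipocytes (limma adjusted p = 6.06e-08, 1.17e-06 and 1.39e-06). Between ES and 3T3-L1 adipocytes the difference was 4.02 ± 0.17. Counted from the dim line in place of the 3T3-L1 values, Bmp4 was at least 13.9-fold higher in ES, 9.06-fold higher in PMEF and 2.69-fold higher in eWAT than in 3T3-L1 adipocytes. ES exceeded PMEF by 0.63 ± 0.17 (adjusted p = 0.00771).

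Gdf10 and Bmp6 were highest in tissue and lowest in 3T3-L1 adipocytes. Gdf10, a relative of Bmp3 made by cells of fat tissue, read 6.81, 6.35 and 5.87 in 3T3-L1, 7.90, 7.67 and 7.82 in PMEF, 8.14, 8.08 and 7.98 in ES adipocytes, and 8.59, 9.13 and 8.99 in eWAT. Its differences from eWAT were -2.56 ± 0.19, -1.11 ± 0.19 and -0.84 ± 0.19 in that order of cultures, and PMEF and ES did not differ by the test (0.27 ± 0.19, adjusted p = 0.281), although they did with only those 6 arrays in the fit (0.0264). For Bmp6, a ligand also made by endothelial cells, the arrays gave 5.98, 5.61 and 5.83 in 3T3-L1, 6.92, 7.11 and 7.17 in PMEF, 6.32, 6.40 and 6.43 in ES adipocytes, and 8.64, 8.26 and 8.13 in eWAT. It fell by 2.54 ± 0.13, 1.28 ± 0.13 and 1.96 ± 0.13 against eWAT (limma adjusted p = 1.12e-09, 1.73e-06 and 2.72e-08). Bmp2 was at -1.78 ± 0.14, -1.28 ± 0.14 and -0.75 ± 0.14, with 8 of its 12 arrays at or under the dim line. Counted from that line, Bmp2 was at least 1.66-fold higher in eWAT than in 3T3-L1 or PMEF adipocytes. Bmp7, known for promoting brown fat cells, was at -0.96 ± 0.13, -0.78 ± 0.13 and -0.53 ± 0.13. Of its arrays 2 in 3T3-L1 and 1 in PMEF adipocytes were at or under the dim line, so the sizes there are uncertain. Endothelial markers were also lower than eWAT, in all 8 of 8 genes in each culture. The summed endothelial level was 12.54 to 12.85 in eWAT, 8.28 to 8.43 in 3T3-L1, 8.64 to 8.67 in PMEF and 8.67 to 8.76 in ES adipocytes, and 2, 1 and 3 of the 8 markers were dim in the 3T3-L1, PMEF and ES groups. Macrophage markers were lower too, in 7, 8 and 8 of 8 genes, with Cd68 higher in 3T3-L1 adipocytes. Their summed level was 12.52 to 13.47 in eWAT, 10.55 to 10.77 in 3T3-L1, 9.43 to 9.69 in PMEF and 9.23 to 9.33 in ES adipocytes, with 3, 1 and 4 of the 8 dim in the 3T3-L1, PMEF and ES groups, and the part of these cells in the ligand values was not tested.

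The other BMP and GDF genes had smaller differences, and several were dim. Bmp3, which opposes bone-forming BMPs, was lower than tissue in 3T3-L1 adipocytes by 1.13 ± 0.10 on the log2 scale. It was higher in PMEF by 0.43 ± 0.10, and its ES difference was 0.14 ± 0.10 (adjusted p = 0.274). Gdf6, a ligand of joint and skeletal patterning, rose over eWAT in PMEF adipocytes by 0.65 ± 0.11, and its smaller ES rise of 0.34 ± 0.11 was not kept without ES array 1 (0.0795) or eWAT array 1 (0.0791) or 2 (0.0854), nor on the reference genes (0.0769). Of the Gdf6 eWAT arrays 2 were dim. Gdf5, of the same branch, was the gene with its highest mean in 3T3-L1 adipocytes, at 0.47 ± 0.11 over eWAT. That call was lost when centred on reference genes (adjusted p = 0.0635). The 9 arrays of the other groups were at or under the dim line, and counted from it Gdf5 was at least 1.17-fold higher in 3T3-L1 adipocytes. Bmp5 and Mstn, the muscle growth inhibitor myostatin, were called in none of the comparisons. Mstn was dim on all 12 arrays and Bmp5 on 11. Other scalings gave calls for both, with Bmp5 at -0.46 in 3T3-L1 against eWAT on the reference genes (adjusted p = 0.00146) and Mstn at -0.33 in PMEF against 3T3-L1 adipocytes centred on medians (0.0386).

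Activin and inhibin subunits gave the largest rise over tissue among the ligand genes. Inhba encodes the subunit of activin A, and Inhbb, which fat cells are known to express, that of activin B. Inhba read 5.73, 5.94 and 6.09 in 3T3-L1, 8.75, 8.91 and 8.66 in PMEF, 7.30, 7.14 and 7.34 in ES adipocytes, and 5.78, 5.78 and 5.51 in eWAT. The PMEF arrays were the highest and the 3T3-L1 and eWAT arrays overlapped. It rose by 3.08 ± 0.11 in PMEF (8.46-fold) and 1.57 ± 0.11 in ES adipocytes (2.97-fold), with limma adjusted p = 6.13e-11 and 5.37e-08. The 3T3-L1 difference of 0.23 ± 0.11 (adjusted p = 0.0962) passed after median centring (0.44, 0.00309) or quantile normalization (0.42, 0.00488) and without 3T3-L1 array 1 (0.32, 0.0268).

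Inhbb ran the other way. Its arrays gave 5.99, 5.98 and 5.91 in 3T3-L1, 6.57, 6.60 and 6.75 in PMEF, 6.58, 6.62 and 6.68 in ES adipocytes, and 7.33, 7.16 and 7.15 in eWAT. Tissue was highest with no overlap, and the differences were -1.25 ± 0.08, -0.57 ± 0.08 and -0.58 ± 0.08. PMEF and ES arrays overlapped and did not differ by the test (-0.01 ± 0.08, adjusted p = 0.917). Inha, the inhibin-specific subunit, rose by 0.86 ± 0.12, 0.98 ± 0.12 and 0.95 ± 0.12, but 2 of its eWAT arrays, at 5.19, 4.85 and 5.45, were at or under the dim line and their mean of 5.16 was below it, so the sizes of these rises are uncertain.

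**Figure D3:**
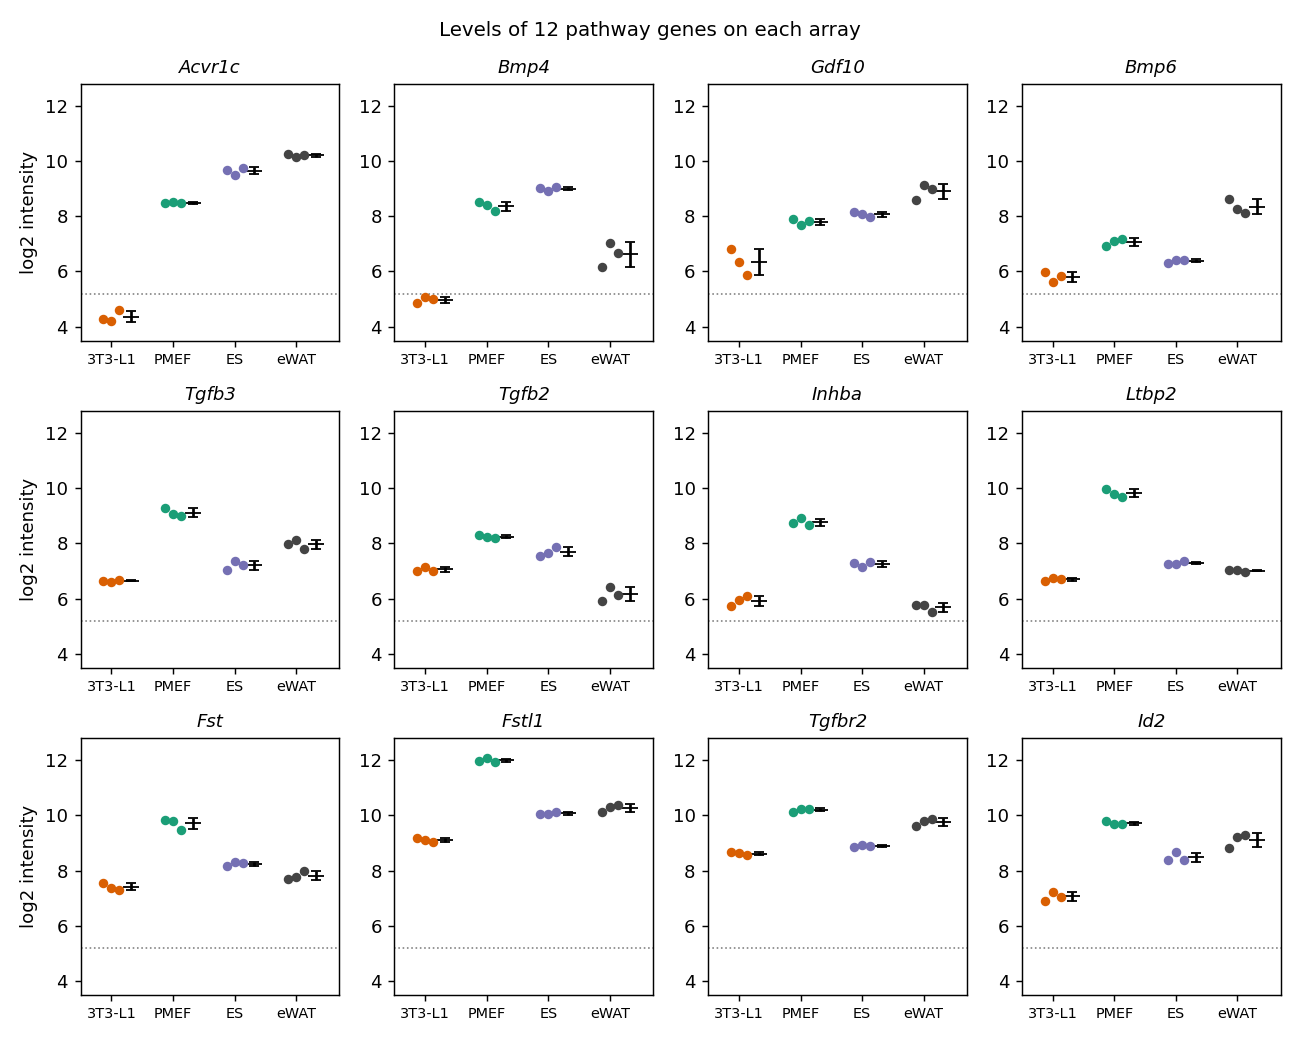
Points are the log2 intensities of the 3 arrays in each group for 12 genes, black bars the mean and SD (n = 3), and the dotted line the dim line of 5.19. Acvr1c and Bmp4 lie under that line in 3T3-L1 adipocytes, and the PMEF points of Tgfb3, Inhba, Ltbp2, Fst and Fstl1 lie above every other group.

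Acvr1c had the widest range of group means of all 41 genes. This type I receptor binds activin B and related ligands and is known as a gene of mature white fat cells. Its arrays read 4.29, 4.21 and 4.59 in 3T3-L1, 8.47, 8.51 and 8.47 in PMEF, 9.68, 9.51 and 9.75 in ES adipocytes, and 10.26, 10.15 and 10.23 in eWAT. The groups did not overlap, and all 3T3-L1 arrays were dim. The fall against eWAT was 5.85 ± 0.10 in 3T3-L1 (limma adjusted p = 2.84e-14), 1.73 ± 0.10 in PMEF (5.4e-09) and 0.57 ± 0.10 in ES adipocytes (0.000239). ES exceeded 3T3-L1 adipocytes by 5.28 ± 0.10. Counted from the dim line, Acvr1c was at least 32.4-fold higher in eWAT, 22.0-fold higher in ES and 9.78-fold higher in PMEF than in 3T3-L1 adipocytes. No other receptor of the set differed between any pair of groups by over 1.61 on the log2 scale. Of 7 fat cell markers, 5 were lower than eWAT in 3T3-L1, 6 were lower in PMEF, and 4 were lower and 1 higher in ES adipocytes. In 3T3-L1 adipocytes Plin1 fell by 1.14 ± 0.08 and Adipoq by 0.95 ± 0.07, while Fabp4 was at -0.15 ± 0.06 and Cidec at 0.06 ± 0.07 (adjusted p = 0.0559 and 0.475). Lep (leptin) had the same order of group means as Acvr1c. Its means were 10.44 in eWAT, 6.58 in ES, 5.75 in PMEF and 4.52 in 3T3-L1 adipocytes, where it was dim. Adipoq and Plin1 shared that order, while Slc2a4, Pparg, Cidec and Fabp4 had their lowest mean in PMEF adipocytes. Slc2a4 was at -1.64 ± 0.09 in PMEF and -0.51 ± 0.09 in 3T3-L1 adipocytes against eWAT, and Pparg at -0.93 ± 0.08 and -0.64 ± 0.08. The summed level of the 7 markers was 14.62 to 14.77 in eWAT, 14.50 to 14.53 in ES, 14.12 to 14.18 in PMEF and 14.09 to 14.18 in 3T3-L1 adipocytes. The part of fat cell content or maturity in the Acvr1c values was not tested.

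The TGF-beta receptors changed in different directions. Tgfbr2, the type II receptor that binds the ligand first, read 8.66, 8.63 and 8.55 in 3T3-L1, 10.13, 10.23 and 10.24 in PMEF, 8.87, 8.93 and 8.90 in ES adipocytes, and 9.60, 9.79 and 9.87 in eWAT. It was at -1.14 ± 0.08, 0.45 ± 0.08 and -0.85 ± 0.08 relative to eWAT. Its partner Tgfbr1 was higher than tissue in all cultures, at 0.82 ± 0.09, 0.55 ± 0.09 and 0.96 ± 0.09, and its eWAT arrays of 7.84, 7.53 and 7.66 lay below every culture array. The co-receptor Tgfbr3 (betaglycan), which presents ligand to Tgfbr2, read 8.70, 8.72 and 8.75 in 3T3-L1, 10.33, 10.30 and 10.35 in PMEF, 9.60, 9.61 and 9.63 in ES adipocytes, and 9.62, 9.59 and 9.63 in eWAT. ES and eWAT overlapped, while 3T3-L1 fell by 0.89 ± 0.06 and PMEF rose by 0.71 ± 0.06.

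Of the other BMP and activin receptors, Acvr2a was the one that passed 2-fold against eWAT. Bmpr1a, the main BMP type I receptor of fat precursors, rose by 0.44 ± 0.07 in PMEF adipocytes. Its ES difference of 0.18 ± 0.07 (adjusted p = 0.0441) was lost without any 1 of the 3 ES arrays (0.0718 to 0.116), among other settings. Bmpr2 was at -0.33 ± 0.07 in 3T3-L1 and -0.49 ± 0.07 in ES adipocytes, and the former was lost with arrays centred on their medians (adjusted p = 0.183). Acvr1 was at -0.44 ± 0.07 and -0.42 ± 0.07 in the same groups. Acvr2a, a type II receptor for activins, rose in PMEF adipocytes by 1.13 ± 0.09, with 3T3-L1 at 0.43 ± 0.09 and ES at 0.37 ± 0.09. The 3T3-L1 call did not hold on the reference genes (adjusted p = 0.0983). Acvr1b was lower than tissue in PMEF (-0.67 ± 0.15) and ES adipocytes (-0.72 ± 0.15), with eWAT arrays that spread from 7.21 to 8.01. Its 3T3-L1 difference of -0.31 ± 0.15 (adjusted p = 0.0961) passed without eWAT array 1 (-0.53, 0.000396), with array weights (-0.40, 0.0159) and on the reference genes (-0.56, 0.00561). Acvr2b was called in none of the 6 comparisons, but in 3T3-L1 against eWAT its 0.11 ± 0.07 became 0.32 with quantile normalization (adjusted p = 0.00114). Bmpr1b was called in 5 of the 6 comparisons, and these calls are part of the counts given here. It was dim on all 12 arrays, so no fold is given for it.

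**Figure D4:**
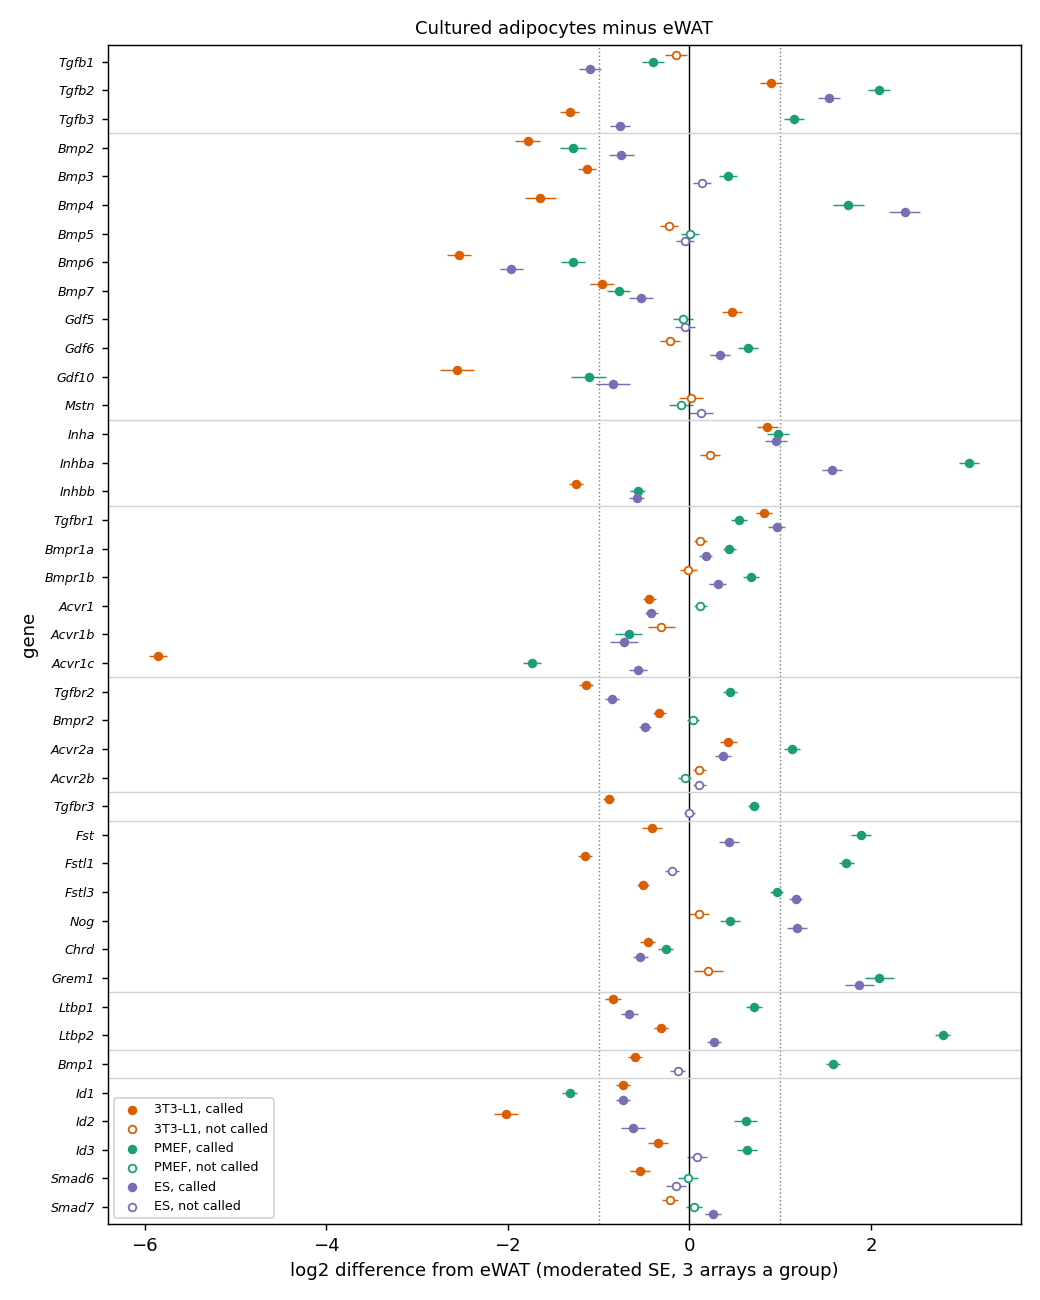
Points give the log2 difference of each culture from eWAT for the 41 genes, with the moderated SE as bars. Filled points passed the test and open points did not, and dotted lines mark 2-fold. Acvr1c in 3T3-L1 adipocytes lies at -5.85 and Inhba in PMEF adipocytes at 3.08.

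Most secreted antagonists were higher in the PMEF and ES cultures than in tissue. Of 6 measured, 5 were higher than eWAT in PMEF adipocytes and 1 lower, 4 were higher and 1 lower in ES adipocytes, and 0 were higher and 4 lower in 3T3-L1 adipocytes. The shares of all genes higher and lower were 24.7% and 21.6% in PMEF, 28.8% and 20.9% in ES and 30.8% and 22.5% in 3T3-L1 adipocytes. Grem1, Nog and Chrd bind BMPs, while Fst and Fstl3 bind activins and some BMPs. Grem1 read 5.64, 5.79 and 5.79 in 3T3-L1, 7.96, 7.51 and 7.37 in PMEF, 7.31, 7.61 and 7.26 in ES adipocytes, and 5.24, 5.58 and 5.76 in eWAT. PMEF and ES arrays overlapped each other and lay above the other groups. The rise over eWAT was 2.09 ± 0.16 in PMEF and 1.87 ± 0.16 in ES adipocytes (limma adjusted p = 1.18e-07 and 3.69e-07). In 3T3-L1 adipocytes the difference was 0.21 ± 0.16 (adjusted p = 0.286), and it passed after median centring (0.42, 0.0306) or quantile normalization (0.41, 0.0314).

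Fst and Fstl1 were set apart in PMEF adipocytes. Fst gave 7.55, 7.36 and 7.31 in 3T3-L1, 9.83, 9.81 and 9.48 in PMEF, 8.17, 8.31 and 8.28 in ES adipocytes, and 7.71, 7.75 and 7.99 in eWAT. It rose by 1.89 ± 0.11 in PMEF and 0.44 ± 0.11 in ES adipocytes, and the fall of 0.41 ± 0.11 in 3T3-L1 adipocytes was lost with arrays centred on their medians (adjusted p = 0.132). Fstl1, a secreted glycoprotein that can bind BMP4, read 9.18, 9.09 and 9.05 in 3T3-L1, 11.98, 12.06 and 11.94 in PMEF, 10.04, 10.05 and 10.13 in ES adipocytes, and 10.12, 10.30 and 10.37 in eWAT. The PMEF rise was 1.73 ± 0.08 and the 3T3-L1 fall 1.15 ± 0.08 (limma adjusted p = 5.3e-10 and 2e-08). The ES arrays overlapped eWAT at -0.19 ± 0.08 (adjusted p = 0.0564), a difference that passed without eWAT array 1 (-0.26, 0.0102) and under 5 other settings.

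Fstl3 and Nog were highest in ES adipocytes. Fstl3 read 7.92, 7.99 and 7.91 there, 7.67, 7.71 and 7.78 in PMEF, 6.34, 6.17 and 6.26 in 3T3-L1, and 6.80, 6.79 and 6.72 in eWAT. It rose by 1.17 ± 0.07 in ES and 0.96 ± 0.07 in PMEF adipocytes and fell by 0.51 ± 0.07 in 3T3-L1. Its ES lead over PMEF, 0.22 ± 0.07 (adjusted p = 0.0186), was lost with quantile normalization (0.0515), without ES array 2 (0.0693) and without PMEF array 1 (0.0562) or 2 (0.0506). Nog (noggin) stood at 6.89, 6.82 and 6.84 in ES adipocytes against 5.43, 5.72 and 5.82 in eWAT, a rise of 1.19 ± 0.11, and at 0.45 ± 0.11 in PMEF. In 3T3-L1 adipocytes it was at 0.11 ± 0.11, which passed with quantile normalization (0.30, adjusted p = 0.0383) or centred on medians (0.32, 0.0258). Pluripotency markers were higher in ES adipocytes than in eWAT in 4 of 6 genes, with 3 of the 6 dim there and a summed level of 7.54 to 7.80 against 7.02 to 7.05, with 5 dim in eWAT. Of 6 neural markers 4 were higher and 1, Nes, was lower by 1.64 ± 0.14, at a summed level of 8.66 to 9.15 against 8.34 to 8.49, with 1 dim in ES adipocytes and 2 in eWAT. Against PMEF adipocytes 1 pluripotency marker, Sox2, and 2 neural markers were higher in ES adipocytes, and none of either list was lower. The part of such cells was not tested. Chrd (chordin) fell in each culture, by 0.46 ± 0.08, 0.26 ± 0.08 and 0.54 ± 0.08, and its PMEF call was lost without PMEF array 2 (adjusted p = 0.0628) or eWAT array 3 (0.0619).

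Matrix-bound and processing genes were led by PMEF adipocytes. Ltbp1 tethers latent TGF-beta to the matrix, Ltbp2 is a matrix relative that does not bind the latent complex, and Bmp1 is a protease that cleaves procollagen and chordin, not a ligand. Ltbp2 read 6.65, 6.75 and 6.72 in 3T3-L1, 9.96, 9.80 and 9.67 in PMEF, 7.27, 7.25 and 7.35 in ES adipocytes, and 7.02, 7.04 and 6.98 in eWAT. The PMEF rise over eWAT was 2.79 ± 0.08 (6.93-fold, limma adjusted p = 6.43e-12) and the ES rise 0.27 ± 0.08. The 3T3-L1 fall of 0.31 ± 0.08 was lost with arrays centred on their medians (adjusted p = 0.294). Bmp1 gave 8.35, 8.39 and 8.37 in 3T3-L1, 10.57, 10.60 and 10.50 in PMEF, 8.80, 8.87 and 8.87 in ES adipocytes, and 8.82, 9.12 and 8.98 in eWAT. PMEF was highest without overlap, at 1.58 ± 0.08 over eWAT. Ltbp1 was at 0.71 ± 0.09 in PMEF, -0.84 ± 0.09 in 3T3-L1 and -0.66 ± 0.09 in ES adipocytes.

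The 5 target and feedback genes did not share a pattern. Id1, Id2 and Id3 encode inhibitors of helix-loop-helix factors and are induced by BMPs, and Smad6 and Smad7 encode inhibitory Smads. Id2 read 6.91, 7.24 and 7.06 in 3T3-L1, 9.78, 9.69 and 9.67 in PMEF, 8.39, 8.67 and 8.37 in ES adipocytes, and 8.80, 9.22 and 9.27 in eWAT. Without overlap between groups, it fell by 2.02 ± 0.13 in 3T3-L1 and 0.62 ± 0.13 in ES adipocytes and rose by 0.62 ± 0.13 in PMEF adipocytes (limma adjusted p = 1.08e-08, 0.000997 and 0.00111). Id1 was lowest in PMEF adipocytes, with 7.21, 7.15 and 7.05 there, 7.77, 7.72 and 7.69 in 3T3-L1, 7.70, 7.84 and 7.62 in ES adipocytes, and 8.34, 8.47 and 8.55 in eWAT. Its falls were 1.32 ± 0.08 in PMEF, 0.73 ± 0.08 in 3T3-L1 and 0.73 ± 0.08 in ES adipocytes.

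Id3, whose promoter carries a pair of CAGAC boxes, rose by 0.63 ± 0.11 in PMEF adipocytes. Its ES difference was 0.08 ± 0.11 (adjusted p = 0.562), which passed without eWAT array 1 (0.24, 0.0139). The 3T3-L1 fall of 0.34 ± 0.11 was lost with arrays centred on their medians (adjusted p = 0.292), without 3T3-L1 array 1 (0.055) and with only the arrays of both groups compared (0.0589). Smad6 fell by 0.54 ± 0.11 in 3T3-L1 adipocytes and was not called in PMEF (-0.02 ± 0.11) or ES adipocytes (-0.15 ± 0.11). Smad7 differed by at most 0.46 in each comparison. Its ES rise over eWAT, 0.26 ± 0.09 (adjusted p = 0.0259), was lost without ES array 1 (0.0983) or 2 (0.0836), without eWAT array 1 (0.0912) or 3 (0.0506), and on the reference genes (0.0994).

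The cultures were also compared with one another. In PMEF against 3T3-L1 adipocytes 30 of 41 genes were higher and 3 lower (22.3% and 27.8% of all genes), and at 2-fold or more 18 were higher and 0 lower (7.32% and 5.21%). In ES against 3T3-L1 adipocytes 26 were higher and 3 lower (20.4% and 23.0%), and at 2-fold or more 10 were higher and 0 lower (5.33% and 2.81%). With arrays centred on their medians these became 25 higher and 7 lower for PMEF and 21 higher and 9 lower for ES adipocytes. In ES against PMEF adipocytes 7 were higher and 22 lower (23.6% and 19.0%), and at 2-fold or more 1 was higher and 9 lower (2.54% and 4.17%). The arrays of 35, 33 and 31 of the 41 genes did not overlap in these 3 comparisons, in the order given, against 56.5%, 55.4% and 52.4% of all genes. The 1 higher gene in ES against PMEF adipocytes was Acvr1c, at 1.16 ± 0.10. The 9 lower genes included Ltbp2 at -2.52 ± 0.08, Fstl1 at -1.92 ± 0.08, Tgfb3 at -1.91 ± 0.11, Bmp1 at -1.71 ± 0.08 and Inhba at -1.51 ± 0.11. All 7 fibroblast markers were lower in ES than in PMEF adipocytes as well, and higher in either culture than in 3T3-L1 adipocytes.

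A wider list of 88 measured genes of the same pathway was counted in the same way. Against eWAT, 17 were higher and 32 lower in 3T3-L1, 40 higher and 18 lower in PMEF, and 23 higher and 24 lower in ES adipocytes. Over all genes the shares higher and lower were 30.8% and 22.5%, 24.7% and 21.6%, and 28.8% and 20.9%, in the same order of cultures, which is the background of the smaller lists too. The wider list held 19.3% and 36.4% in 3T3-L1, 45.5% and 20.5% in PMEF, and 26.1% and 27.3% in ES adipocytes. The 3T3-L1 split was 37 higher and 25 lower with arrays centred on their medians and 7 higher and 51 lower on the reference genes. Against 3T3-L1 adipocytes 44 were higher and 12 lower in PMEF (38 and 22 on medians, 63 and 8 on the reference genes) and 27 higher and 15 lower in ES adipocytes (20 and 31, 44 and 8). In ES against PMEF adipocytes 13 were higher and 40 lower. Over all genes 22.3% were higher and 27.8% lower in PMEF against 3T3-L1, 20.4% and 23.0% in ES against 3T3-L1, and 23.6% and 19.0% in ES against PMEF adipocytes. The 6 signalling Smads, which carry the signal to the nucleus, stayed within 0.69 of eWAT in every culture. Smad3 fell by 0.69 ± 0.07 in ES and 0.43 ± 0.07 in 3T3-L1 adipocytes, and Smad9 rose by 0.69 ± 0.09 in PMEF. Smad4, the shared partner, was at 0.21 ± 0.07, 0.29 ± 0.07 and 0.20 ± 0.07 in 3T3-L1, PMEF and ES adipocytes. On the reference genes its 3T3-L1 value turned to -0.03 (adjusted p = 0.709), and the 3T3-L1 call was also lost with quantile normalization (0.259) and without 3T3-L1 array 1 (0.0601). The ES call of Smad4 was lost on the reference genes (0.12), with quantile normalization (0.0597), without ES array 2 (0.0934) or 3 (0.0659) and without eWAT array 1 (0.0557). Smad1 fell by 0.41 ± 0.10 in PMEF and 0.33 ± 0.10 in ES adipocytes, the latter not kept without ES array 1 (adjusted p = 0.054) or eWAT array 3 (0.0762). Smad5 fell by 0.52 ± 0.08 in ES adipocytes. Smad2 was at 0.32 ± 0.07 in 3T3-L1 adipocytes, a call lost on the reference genes (adjusted p = 0.367).

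From each other list, the genes named are the 2 called ones with the widest range of group means. That choice favours large differences, so their sizes were not compared with those of the Smads. The endothelial co-receptor Eng (endoglin) was at -4.74 ± 0.12, -1.96 ± 0.12 and -3.69 ± 0.12 relative to eWAT in 3T3-L1, PMEF and ES adipocytes, and the type I receptor Acvrl1 at -1.22 ± 0.08, 0.33 ± 0.08 and -1.09 ± 0.08. Endothelial markers were lower than eWAT in each culture, as given above, including PMEF adipocytes, where Acvrl1 was higher. The part of endothelial cells in the Eng and Acvrl1 values was not tested. Of 12 latency and activation genes, 5 were higher and 4 lower in PMEF adipocytes. Fbn2, a fibrillin of embryonic matrix, rose by 4.88 ± 0.09 in PMEF and 2.46 ± 0.09 in ES adipocytes. Its eWAT arrays, at 5.18, 5.22 and 5.15, included 2 at or under the dim line, so the tissue level was at the edge of what was measured. Thbs1, an activator of latent TGF-beta, rose by 2.02 ± 0.09 in PMEF, with 3T3-L1 at -1.18 ± 0.09. Of 15 other antagonists 8 were higher and 2 lower in PMEF adipocytes. The serine protease Htra1 fell by 4.25 ± 0.08 in 3T3-L1 adipocytes, and the BMP antagonist Nbl1 by 1.57 ± 0.11.

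Of 14 TGF-beta target genes 4 were higher and 8 lower than eWAT in 3T3-L1, 10 higher and 4 lower in PMEF, and 5 higher and 4 lower in ES adipocytes. Of all genes 30.8% were higher and 22.5% lower in 3T3-L1, 24.7% and 21.6% in PMEF, and 28.8% and 20.9% in ES adipocytes. Against those shares the 4 higher in 3T3-L1 (28.6%), the 4 lower in PMEF (28.6%) and the ES counts (35.7% and 28.6%) lay near the background, and the 8 lower in 3T3-L1 (57.1%) and the 10 higher in PMEF (71.4%) above it. Tagln, an actin-binding protein of contractile cells, was at -2.73 ± 0.14, 1.13 ± 0.14 and -0.19 ± 0.14. Tgfbi, a secreted matrix protein named for its induction by TGF-beta, fell in each culture, by 3.19 ± 0.17, 0.98 ± 0.17 and 2.93 ± 0.17. Of 7 smooth muscle markers, 1 was higher and 6 lower than eWAT in 3T3-L1, 3 were higher and 4 lower in PMEF, and 0 were higher and 5 lower in ES adipocytes. Acta2, smooth muscle actin, is in both lists. Their summed level was 12.01 to 12.10 in eWAT, 9.85 to 9.97 in 3T3-L1, 11.91 to 12.18 in PMEF and 10.67 to 10.82 in ES adipocytes, with 2 markers dim in 3T3-L1 and 1 in ES adipocytes, and their part was not tested. Of 9 intracellular brakes on the pathway 4 were higher and 3 lower in 3T3-L1 adipocytes. The corepressor Tgif1 rose by 3.25 ± 0.09 in 3T3-L1 adipocytes, 1.44 ± 0.09 in ES adipocytes and 0.76 ± 0.09 in PMEF adipocytes. Pmepa1, a feedback inhibitor induced by TGF-beta, fell by 2.89 ± 0.12 in 3T3-L1 adipocytes, 1.27 ± 0.12 in ES adipocytes and 0.87 ± 0.12 in PMEF adipocytes. Among 8 BMP target genes, 3 were higher and 1 lower in PMEF, 0 higher and 2 lower in 3T3-L1, and 1 higher and 2 lower in ES adipocytes, so that 4 to 6 of the 8 were not called. In PMEF adipocytes Id4 was at 1.54 ± 0.17 and Atoh8 at 0.81 ± 0.07. Of 15 other ligands 6 were higher and 0 lower in PMEF, 1 higher and 1 lower in 3T3-L1, and 2 higher and 0 lower in ES adipocytes. In PMEF adipocytes Gdf11 was at 1.12 ± 0.12. Lefty1, a secreted inhibitor of nodal, was above the dim line on the PMEF arrays alone, and counted from that line it was at least 1.26-fold higher there than in eWAT (adjusted p = 8.07e-05).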

How the data were processed

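RNA was extracted with TRIzol and 300 ng of total RNA was labelled with the Ambion WT Expression kit, per the labels' protocols. The authors deposited log2 intensities for 35556 probe sets on 12 arrays, normalized between arrays by a method not given in the sources used here, and these were analysed as deposited. The log base was read from the values, which reach 13.48. Of the probe sets 21789 had 1 gene symbol, 1621 several and 12146 none, and the brightest single-symbol probe set stood for each of 19938 genes. One fit of the 4 groups was made with limma 3.58.1 in R 4.3.3 (8 residual and 4.88 prior degrees of freedom) and Benjamini-Hochberg adjustment over all genes, after the fit had been checked on simulated data. The number of arrays limits the precision, and p-values measure the spread between these arrays. The arrays agreed within groups (Pearson r across genes 0.992 to 0.997, against 0.899 to 0.965 between groups). Same-numbered arrays of different groups did not deviate together (r of -0.137 to 0.108), so arrays were treated as unpaired. The members and lists were chosen with earlier results of these data known. All 41 members could be named, the 6 signalling Smads, and in each other pathway list the 2 called genes with the widest range of group means. Alternatives were other scalings, filters, probe set rules, variance settings, a replicate block and leaving out each array.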

Additional observations from a re-analysis of the deposited data

Results flagged for a closer look

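A pair of cultures differed from eWAT in opposite directions, by at least 2-fold each way, for 3 genes, and the direct difference between the cultures was tested with limma over all genes. Bmp4 was at -1.64 in 3T3-L1 against 1.75 in PMEF adipocytes, a difference of 3.39 ± 0.17 (adjusted p = 1.09e-09), and against 2.37 in ES adipocytes, a difference of 4.02 ± 0.17 (adjusted p = 4.14e-10). All 3T3-L1 arrays of Bmp4 were dim, so these sizes rest on values under the dim line, and counted from that line the 3T3-L1 level was lower by at least 1.43 than eWAT, 3.18 than PMEF and 3.80 than ES adipocytes on the log2 scale. Fstl1 was at -1.15 in 3T3-L1 and 1.73 in PMEF adipocytes, which differed by 2.88 ± 0.08 (adjusted p = 2.53e-12). Tgfb3 was at -1.32 and 1.15 in the same groups, which differed by 2.47 ± 0.11 (adjusted p = 4.15e-10). All 3 arrays of each culture lay on the stated side of all eWAT arrays for these genes.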

How the results depend on the processing

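Over 22 alternative settings, the 72 member differences called at 2-fold or more stayed called in the same direction wherever they had a value, and 6 of them were under 2-fold in some setting. Of all 184 member calls 157 held in every setting that gave a value and 27 were lost in at least 1, and none of the lost ones was larger than 0.50 on the log2 scale. Of the 62 member differences not called, 36 were called in some setting, none of them larger than 0.36 in the fit reported. Leaving out the dimmest genes gave no value for 5 members (Bmp2, Bmp5, Bmpr1b, Gdf5 and Mstn), with 14 calls, 3 of them 2-fold, so these were tried in 21 settings. Scaling mattered most for 3T3-L1 adipocytes. Members higher than eWAT there numbered 5, but 10 after median centring, 9 after quantile normalization and 3 on the reference genes. Members lower in PMEF than in 3T3-L1 adipocytes numbered 3, but 7 centred on medians and 5 with array weights, and those lower in ES than in 3T3-L1 adipocytes numbered 3, but 5 with quantile normalization and 9 centred on medians. At 2-fold or more, counted as an addition after the data were seen, 0 members were higher in 3T3-L1 than in eWAT, but 1 with quantile normalization, 3 centred on medians and 0 to 1 with 1 array left out (1 without eWAT array 2 or 3). For ES lower than 3T3-L1 adipocytes 0 became 1 centred on medians and 0 to 1 with 1 array left out (1 without 3T3-L1 array 1 or 2). Of the 88 wider genes, those higher in 3T3-L1 than in eWAT went from 17 to 37 on medians and 7 on the reference genes, and those lower from 32 to 51 on the reference genes. Wider genes lower in PMEF than in 3T3-L1 adipocytes went from 12 to 22 on medians. For ES against 3T3-L1 adipocytes the higher ones went from 27 to 44 on the reference genes, and the lower ones from 15 to 31 on medians and 8 on the reference genes. Smad4 in 3T3-L1 against eWAT turned from 0.21 to -0.03 on the reference genes. The cause was not tested. With the replicate number as a block, the members higher and lower than eWAT numbered 5 and 24 in 3T3-L1, 23 and 10 in PMEF and 14 and 16 in ES adipocytes. They numbered 30 and 4 for PMEF against 3T3-L1, 26 and 3 for ES against 3T3-L1 and 7 and 21 for ES against PMEF adipocytes. The block gained 1 call and lost 2, Bmpr1a in ES against eWAT (adjusted p = 0.0684) and Gdf6 in ES against PMEF adipocytes (0.0503).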
